A study of Mus musculus with 3 samples.

Results

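CTCFL binding was examined at 9 mouse genes that act in proliferation, tumour suppression or neurons and that have been described as promoter targets of CTCF or of CTCFL, which is also called BORIS: Tert, Myc, Trp53, Rb1, Brca1, Plk1, Cdkn2a, Bag1 and App. The genes were taken by name from the GENCODE annotation of the mm9 genome, and all 9 were found among its 22359 protein-coding genes. For each gene the CTCFL peaks were recorded whose center lay in the promoter interval, from 2 kb upstream to 1 kb downstream of a transcription start site (TSS), in the gene body, or within 100 kb of a TSS. This gave 18 of the 7436 peaks of the list, and no peak was shared by 2 of the genes.

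CTCF is a ubiquitous zinc finger protein that binds insulators and promoters and anchors chromatin loops together with cohesin. CTCFL is its testis-specific paralog, with a similar zinc finger domain and different ends, and it is switched on aberrantly in a number of cancers. CTCF was first described as a factor that binds the promoter of the chicken Myc gene, and later work has linked CTCF or BORIS to the promoters of the other genes named here. The genes differ in what their products do. Tert encodes the catalytic subunit of telomerase, Myc a growth-promoting transcription factor, and Plk1 a kinase that drives mitosis. Trp53, Rb1, Brca1 and Cdkn2a are tumour suppressors, Bag1 encodes a co-chaperone that counters cell death, and App encodes the amyloid precursor protein.

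The peaks came from mouse ES cells in which the reverse tetracycline transactivator rtTA is made from the ROSA26 locus, and which carried a transfected TRE-mCTCFL-V5-GFP-neomycin construct. For the ES_CTCFL_V5_DOX library the transgene was induced with doxycycline for 3 days, cells were sorted for GFP, and chromatin was precipitated with an antibody against the V5 tag. The ES_CTCFL_V5_NODOX library came from the same cells without induction or sorting, with the same antibody, and the ES_CTCF library from ES cells with a CTCF antibody, called transgenic in the labels and normal in the study's text. Each of the 3 groups had 1 library. The cells grew with LIF on gelatin. The bound protein is thus a tagged, ectopic CTCFL in cells that also contain CTCF, and how many clones of the transfected line were used is not given in the sources used here. Peaks of the non-induced cells and of CTCF were not analysed here. The list gives the start and end of each peak and no read number. It is longer than the set of CTCFL sites that the study counts, and with no score the shorter set could not be picked out of it. Depth is unknown, no spread between replicates exists, and no test was made. Every value below describes a single library.

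Of the 9 genes, 4 had a CTCFL peak with its center in the promoter interval: Tert, Trp53, Bag1 and App. Among all protein-coding genes the share was 11.2% (2512 genes, 95% Wilson interval 10.8 to 11.7%, counting error only). Myc, Rb1, Brca1, Plk1 and Cdkn2a had none there. A peak center lay in the gene body of 2 of the 9 genes, Tert and Bag1, against 14.6% of all genes. At least 1 peak lay within 100 kb of a TSS of 7 of the 9 genes, and this held for 60.3% of all genes. The number of such peaks was 5 for Trp53, 4 for Tert, 3 each for Brca1 and Plk1, 1 each for Cdkn2a, Bag1 and App, and 0 for Myc and Rb1. The median of the 9 genes was 1, the same as the median of all genes.

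**Figure D1:**
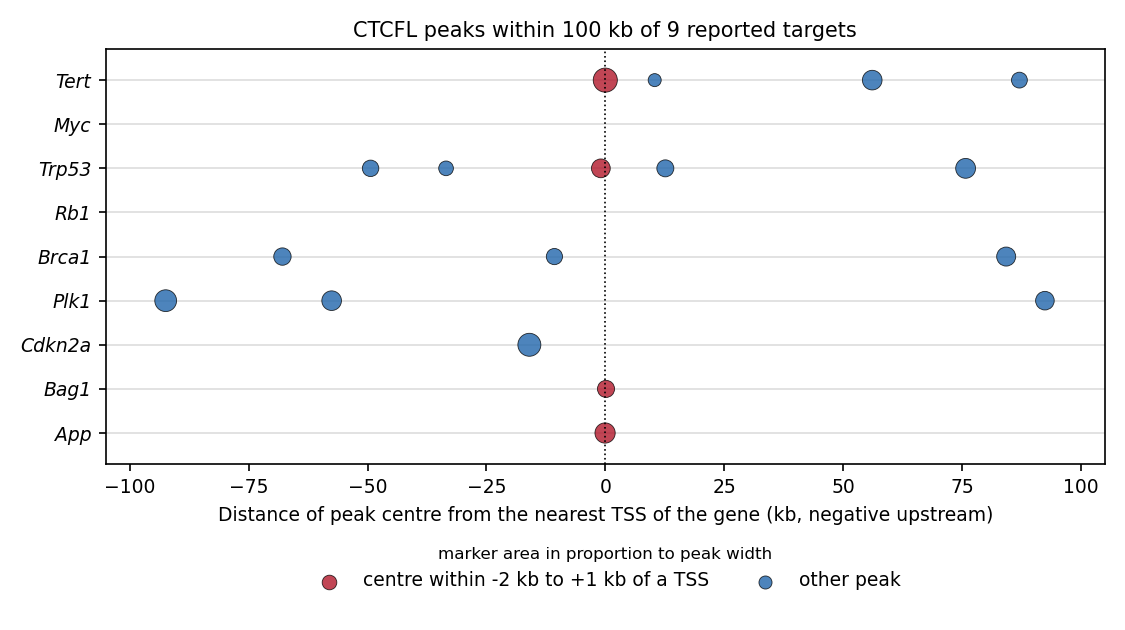
Centers of the 18 CTCFL peaks within 100 kb of the 9 genes, by distance in kb from the nearest TSS of the gene (x axis, negative upstream), 1 row per gene and marker area in proportion to peak width. Tert, Trp53, Bag1 and App have a red marker, the peaks centered in a promoter interval, and the rows of Myc and Rb1 are empty.

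Many of these peaks lay nearer to the start of another gene than to the gene they were recorded for. The nearest protein-coding TSS was that of the listed gene for 4 of the 18 peaks, which were 2 at Tert and those at Bag1 and App. A promoter interval of some protein-coding gene held 9 of the 18 peaks, and for 5 of them this was a promoter of another gene only. By their centers, 7 peaks were intergenic, 7 intronic, 2 in coding exons and 2 in other exons. These counts are given without the shares in the whole list, so they do not show whether the 18 peaks are unusual. Widths ran from 235 to 804 bp. Their median, 483.5 bp, was near that of the whole list (454 bp), and 10 of the 18 were at or above the latter. All 36-base windows, the length of a read, were unique in the genome in 14 of the 18 peaks, the 4 promoter peaks included.

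The sequence under the peaks was compared with the CTCFL consensus of the study, a motif of 14 positions of which 10 were taken as fixed. These are C at positions 1, 2, 12 and 14, A at position 6, and G at positions 7, 8, 10, 11 and 13, counted from the 5′ end of the motif. Positions 3, 4, 5 and 9 were free, and both strands were searched. The study describes C at positions 1 and 2 and A at position 6 as less frequent in the CTCFL motif than in that of CTCF. It also describes A at position 3 as absent from the CTCFL motif, and G at positions 8 and 11 as more frequent in it. Of the matches with 1 mismatch printed here, those with C1A, C1G or A6G fall at positions 1 and 6, described as less frequent. Those with G8A, in the Trp53 and Cdkn2b peaks, fall at position 8, described as more frequent. In the lines that follow, each match is given 5′ to 3′ on its own strand with 8 bases on either side, and capitals mark the fixed positions that were met. They are shown because they set the matches at promoters with a peak beside matches at promoters without a peak. The 2 sets were not searched alike. Matches at promoters with a peak were taken from within the peak, the others from the whole promoter interval, which is longer. The lines thus do not rank the promoters by their best match. Promoters with a peak come first, then promoters without a peak, then matches in peaks farther away.
Tert promoter peak: ttggagtaaCgaaAGGgGGCGCactcatgc
Trp53 promoter peak, nearer to the center: cccaggggaCggtAGGgGGCGCtcgtgtag
Trp53 promoter peak, other match: ctccctggCCtgcAGagGGCGCataatttc
Bag1 promoter peak: ttgcaggcgCcggcGGcGGCGCccctggtg
App promoter peak: ccgaggctCCgctAGGgGtCtCtgtcgggt
Myc, no peak: gcctttctCCttcAGGtGGCGCaaaacttt
Plk1, no peak: gagaagccCCtggAGGaGGCGCaggtgaac
Rb1, no peak: gcgtcgtcCCcgtgGGcGGCGCcagccgag
Brca1, no peak: gctttccgCCcacgGGgGGCGCttgccagt
Cdkn2a at the downstream promoter, no peak: cacagcccgCcatAGGtGGCGCtatttgcc
Cdkn2a at the upstream promoter, no peak: agaggcgcCCagggGGaGGCGCgcgcgggc
Cdkn2b peak beside Cdkn2a: aggccttaCCggcAGagGGCGCacgagcgc
Dnahc2 peak beside Trp53: gcacgggtCCagcAGGtGGCGCtcggggtc

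The 2 lines in which every fixed position is in capitals within the promoters are those of Myc and Plk1, where no peak was listed. The App and Bag1 peaks held no match with fewer than 2 mismatches of the 10 fixed positions.

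At Tert (ENSMUSG00000021611.7, chromosome 13 from 73764449 to 73786489, plus strand) the promoter peak lay from 73764042 to 73764845. It was centered -6 bp from the upstream TSS and reached from -407 to +396 bp. With 804 bp it was the widest of the 18 peaks and ranked 310 among the 7436 of the list. The stretch of 300 bases that ends just before the upstream TSS, chr13:73764149-73764448 on the plus strand, is shown because it holds the only match of the peak with 1 mismatch, in capitals here over its whole length.
Tert upstream of the TSS: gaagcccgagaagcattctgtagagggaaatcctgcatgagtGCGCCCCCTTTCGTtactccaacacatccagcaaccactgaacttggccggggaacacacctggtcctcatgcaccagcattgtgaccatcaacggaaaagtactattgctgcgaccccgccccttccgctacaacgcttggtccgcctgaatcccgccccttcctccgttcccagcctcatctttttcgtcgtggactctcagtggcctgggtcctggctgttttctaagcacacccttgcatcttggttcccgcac

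This match lay on the minus strand from 73764191 to 73764204, carried C1A against the consensus, and was centered 245.5 bp from the peak center. A second, narrow peak lay in an intron of Tert, from 73784225 to 73784459 (235 bp, rank 7223), at +10379 bp from the nearest TSS, and its best match had 2 mismatches. The other 2 peaks within 100 kb were nearest to amino acid and ion transporter genes downstream. The peak at +56.1 kb lay in an exon of Slc6a19 (73829813 to 73830345, 533 bp), and the one at +87.1 kb was intergenic at -9519 bp from Slc12a7 (73860850 to 73861196, 347 bp). At least 4 peaks within 100 kb of a TSS were found for 11.2% of all genes.

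The p53 gene Trp53 (ENSMUSG00000059552.6, chromosome 11 from 69393861 to 69405375, plus strand) shares its upstream region with Wrap53, whose product guides telomerase RNA and which is transcribed the other way. Wrap53 has an annotated TSS 104 bp upstream of the first TSS of Trp53, and another farther upstream of Trp53. The promoter peak lay from 69392680 to 69393167 (488 bp, rank 3056), from -1181 to -694 bp of the Trp53 TSS with its center at -938 bp. It did not reach the TSS of Trp53, and the nearest TSS was that of a Wrap53 transcript, at -97 bp. The peak was thus counted for both genes, and its center lay in an intron of the Wrap53 transcript that starts closer to Trp53. Its central bases, chr11:69392833-69393022 on the plus strand, are shown because 2 matches with 1 mismatch stand close together in them, on opposite strands, in capitals over their whole length.
Trp53 and Wrap53 peak: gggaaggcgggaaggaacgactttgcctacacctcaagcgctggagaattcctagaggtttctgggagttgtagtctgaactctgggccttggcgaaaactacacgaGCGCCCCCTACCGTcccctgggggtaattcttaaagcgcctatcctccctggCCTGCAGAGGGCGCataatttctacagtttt

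The match from 69392940 to 69392953 was on the minus strand, carried C1A and was 23.5 bp from the peak center. The match from 69392992 to 69393005 was on the plus strand, carried G8A and was 75.5 bp from it. Both matches with C1A, at Tert and here, met the other 9 fixed positions.

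Trp53 had 5 peaks within 100 kb, and at least 5 were found for 5.79% of all genes. Upstream, 2 peaks lay in introns of the dynein gene Dnahc2. The peak at -33.5 kb (69360228 to 69360525, 298 bp, rank 6528) held a match without mismatch (69360378 to 69360391, plus strand) 8.5 bp from its center, the only such match in the 18 peaks. The peak at -49.4 kb (69344320 to 69344694, 375 bp) held no match at up to 2 mismatches, and 71.5% of its windows were unique. Downstream, a peak at +12.6 kb (69412812 to 69413211, 400 bp) was intergenic and nearest to Atp1b2, which encodes a subunit of the sodium pump. The last, at +75.7 kb (69475869 to 69476413, 545 bp), was centered +3 bp from the TSS of Mpdu1, a gene of glycan synthesis, and held a match with 1 mismatch, C14G.

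At Bag1 (ENSMUSG00000028416.5, chromosome 4 from 40883431 to 40895314, minus strand) the peak lay from 40894928 to 40895333 (406 bp, rank 4628). It reached from -57 to +348 bp, its center was at +146 bp in a coding exon, and it was the narrowest of the 4 promoter peaks. The promoter is shared with Chmp5, a gene of endosomal sorting that is transcribed the other way from 126 bp upstream, and the peak was counted for both. GC made up 70.9% of the peak. It held 2 matches, each with 2 mismatches, C1G and A6C at 40895038 to 40895051 on the plus strand, shown above, and G10C and C14T in the other. A match with 1 mismatch, C12A, lay at -173 bp in the promoter interval of Bag1 but outside the peak.

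At App (ENSMUSG00000022892.9, chromosome 16 from 84954685 to 85173952, minus strand) the peak lay from 85173721 to 85174287 (567 bp, rank 1900). It reached from -335 to +231 bp with its center at -52 bp, and it was the only peak within 100 kb of an App TSS. The gene spans 219 kb, more than 96.3% of all protein-coding genes, and no peak center lay in its body. Of the 2363 genes of 100 kb or more, 33.7% had a peak center in the body. The 200 bases before the upstream TSS, chr16:85173953-85174152 read on the minus strand, are shown because they hold the best matches of the peak, 4 in number with 2 mismatches each. The matches are in capitals over their whole length, and the pair that lies closest to the TSS overlaps.
App upstream of the TSS: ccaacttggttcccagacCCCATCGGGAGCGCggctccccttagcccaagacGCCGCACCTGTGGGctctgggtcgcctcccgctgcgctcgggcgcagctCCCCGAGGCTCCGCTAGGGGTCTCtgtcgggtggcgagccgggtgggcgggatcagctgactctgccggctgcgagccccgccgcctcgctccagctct

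Of these 4, the match from 85174028 to 85174041 was nearest to the peak center, at 30.5 bp, and carried G11T and G13T. GC made up 70.9% of the App peak, as in the Bag1 peak.

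Myc (ENSMUSG00000022346.8, chromosome 15 from 61816946 to 61821929, plus strand) lay farthest from CTCFL peaks among the 9 genes. The nearest peak center was 654 kb downstream of a TSS (62472955 to 62473314, 360 bp), and 91.9% of all genes had a peak nearer to a TSS. On the other side the nearest peak was 1110 kb away. The gene has 5 annotated TSSs of protein-coding transcripts, and a match without mismatch lay 98 bp downstream of one of the internal ones and 1741 bp downstream of the first, in an exon (61818680 to 61818693, plus strand). A match with 1 mismatch, A6C, lay at +31 bp from the same TSS. At least 99.1% of the 36-base windows were unique in each promoter interval of Myc.

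Rb1 (ENSMUSG00000022105.6, chromosome 14 from 73595309 to 73725629, minus strand), whose product holds back entry into S phase, had no peak in its 130 kb or within 100 kb of its TSS. The nearest peak center was 184 kb upstream (73909593 to 73910013, 421 bp). The promoter interval held a match with 1 mismatch, A6G, at -181 bp (73725803 to 73725816, plus strand), and all of its windows were unique. The CpG observed/expected ratio within 500 bp of the TSS, a measure of how far CpG dinucleotides are kept, was 1.05, above that of 99.4% of genes.

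At Cdkn2a (ENSMUSG00000044303.5, chromosome 4 from 88920377 to 88940557, minus strand), which encodes the proteins p16 and p19Arf from separate promoters, no peak was listed at either promoter or in the gene. The single peak within 100 kb lay at -16.0 kb, from 88956164 to 88956893 (730 bp, rank 514). It was in an intron of Cdkn2b, the neighboring gene for the CDK inhibitor p15, at +413 bp from the Cdkn2b TSS. A match with 1 mismatch, G8A, was 16.5 bp from its center (88956538 to 88956551, minus strand). Both Cdkn2a promoters themselves held a match with 1 mismatch, each at -88 bp from its TSS, with C1G at the downstream (88928177 to 88928190) and A6G at the upstream promoter (88940638 to 88940651), both on the plus strand.

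At Brca1 (ENSMUSG00000017146.6, chromosome 11 from 101350078 to 101413193, minus strand), a gene of homologous recombination repair, the nearest peak was at -10.7 kb (101423715 to 101424077, 363 bp). It lay in an intron of Nbr1, an autophagy receptor gene transcribed the other way, which has an annotated TSS 270 bp upstream of Brca1. The other 2 peaks were at -67.9 kb, intergenic and nearest to Rdm1 (101480868 to 101481285, 418 bp), and at +84.3 kb (101328664 to 101329164, 501 bp). The latter was centered in promoter intervals of Rnd2 and Vat1. None of the 3 held a match with fewer than 2 mismatches. The promoter interval of Brca1 held a match with 1 mismatch, A6G, at -1060 bp in an exon of Nbr1 (101414246 to 101414259, minus strand).

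At Plk1 (ENSMUSG00000030867.6, chromosome 7 from 129302951 to 129313389, plus strand) no peak lay within 50 kb of the TSS. The 3 peaks within 100 kb were at -57.5 kb (129245145 to 129245677, 533 bp), centered -11 bp from the TSS of Ndufab1, at -92.4 kb (129210194 to 129210850, 657 bp), centered +48 bp from the TSS of Ears2 and also in a promoter interval of Ubfd1, and at +92.4 kb (129395132 to 129395610, 479 bp), +32361 bp from the TSS of 2010110P09Rik. Ndufab1 encodes the mitochondrial acyl carrier protein and Ears2 a mitochondrial tRNA synthetase. In the Ndufab1 peak 72.1% of windows were unique. The 300 bases before the Plk1 TSS, chr7:129302651-129302950 on the plus strand, are shown because they hold a match without mismatch at -265 bp, in capitals, and no peak.
Plk1 upstream of the TSS: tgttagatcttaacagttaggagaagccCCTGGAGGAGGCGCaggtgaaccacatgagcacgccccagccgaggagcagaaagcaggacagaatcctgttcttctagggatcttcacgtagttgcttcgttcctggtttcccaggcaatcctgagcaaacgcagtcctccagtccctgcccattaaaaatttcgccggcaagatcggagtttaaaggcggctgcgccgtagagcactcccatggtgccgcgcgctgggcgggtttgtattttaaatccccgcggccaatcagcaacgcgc

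This match (129302679 to 129302692, plus strand) lay in an exon of the non-coding transcript Gm15489. In the promoter interval of Plk1, 96.2% of windows were unique.

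**Figure D2:**
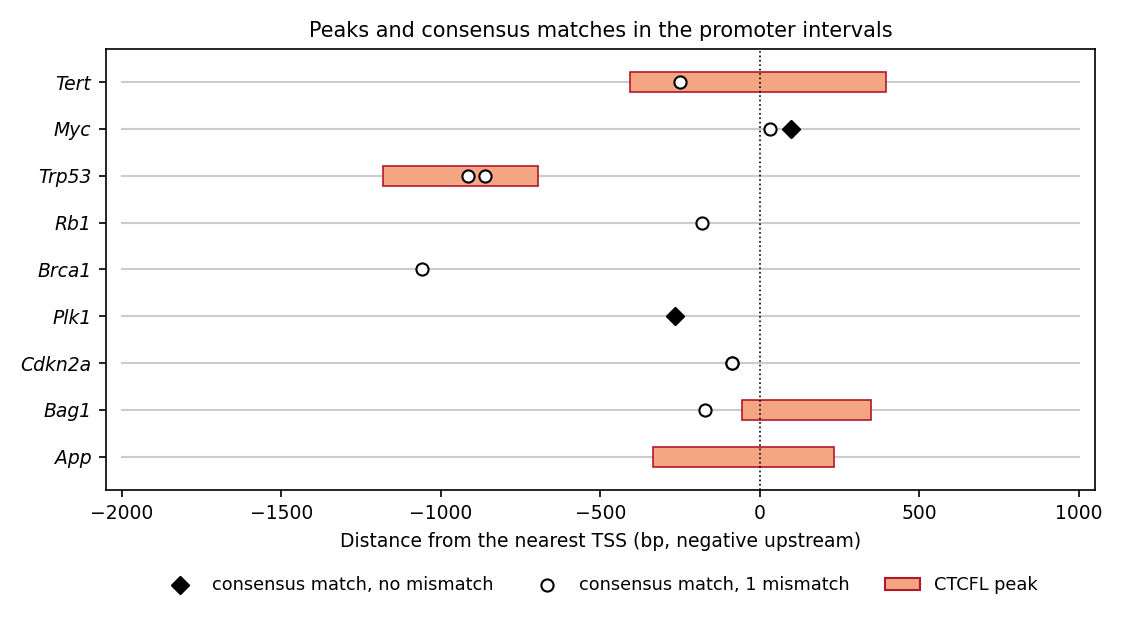
Promoter intervals of the 9 genes, 2 kb upstream to 1 kb downstream of each TSS, by distance in bp from the nearest TSS (x axis, negative upstream), with CTCFL peaks as bars and consensus matches as symbols. Filled diamonds are matches without mismatch, at Myc and Plk1 and outside peaks, open circles are matches with 1 mismatch, and at Cdkn2a the 2 promoters have a match at the same distance, so that their circles coincide.

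In all, the promoter intervals of 8 of the 9 genes held a match at up to 1 mismatch, App being the exception. Among all protein-coding genes the share was 30.1%. The promoter intervals of the 9 genes held 11 such matches. Of these, 3 lay inside a peak, at Tert and Trp53, and 8 outside. In the promoter intervals of all protein-coding genes 18.3% of 8661 matches at up to 1 mismatch lay inside a peak, and 49.2% of 671 matches without mismatch. Genes were also sorted by the best match in their promoter interval. A promoter peak was found for 53.7% of the 707 genes with a match without mismatch, the class of Myc and Plk1. It was found for 21.4% of the 6027 genes whose best match had 1 mismatch, the class of Tert, Trp53, Rb1, Brca1, Cdkn2a and Bag1, and for 6.50% of the 12539 genes with 2 mismatches, the class of App. Myc and Plk1 were thus among 327 genes with such a match and no peak, and App among 815 genes with a peak whose best match had 2 mismatches.

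These classes depended on the choice of fixed positions. With positions 1, 2 and 6 also free and no mismatch at the remaining ones, a setting chosen after the data were seen, the promoter intervals of all 9 genes held a match, App included. Of all 22359 protein-coding genes, 10200 held such a match. The 9 genes had 22 matches, and 5 of them lay inside a peak, a share that was not computed over all genes. The 4 promoter peaks, at Tert, Trp53, Bag1 and App, each held at least 1 of these, and 33.7% of all peaks of the list held a match. Over all genes a promoter peak was found for 18.5% of the 10200 genes with such a match and for 5.16% of the 12159 genes without. Among the 9 genes this measure did not separate those with a promoter peak from those without, since all 9 held a match.

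Within the 18 peaks themselves, 1 held a match without mismatch, and the share in the whole list was 12.8%. A match at up to 1 mismatch was found in 7, and in 43.9% of the list. A match at up to 2 mismatches was found in 16, and in 76.7% of the list. The 2 peaks without one were those at -49.4 kb of Trp53 and at -67.9 kb of Brca1.

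**Figure D3:**
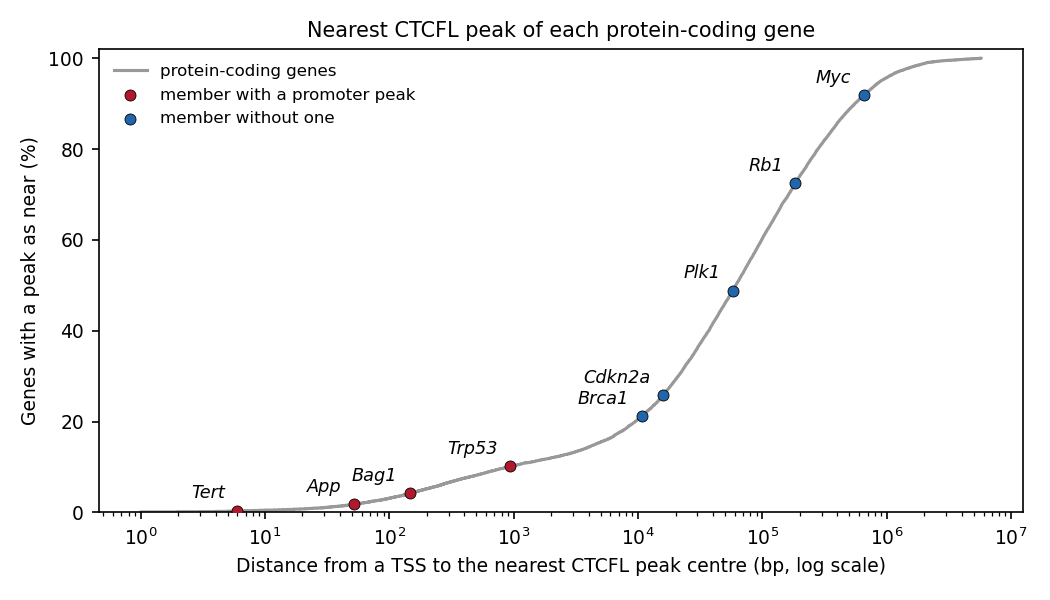
Share of the 22359 protein-coding genes (y axis, %) whose nearest CTCFL peak center is at most as far from a TSS as given on the x axis (bp, log scale), with the 9 genes marked on the curve. Tert, App, Bag1 and Trp53 stand at 6 to 938 bp, Brca1 and Cdkn2a at 10.7 and 16.0 kb, Plk1 at 57.5 kb, close to the median gene at 60.9 kb, and Rb1 and Myc at 184 and 654 kb.

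By the distance from a TSS to the nearest peak, the genes spread over nearly the whole range of all protein-coding genes. A nearer peak was found for 0.286% of genes in the case of Tert, 1.76% for App, 4.17% for Bag1 and 10.1% for Trp53. The figures were 21.2% for Brca1, 25.8% for Cdkn2a, 48.9% for Plk1 and 72.5% for Rb1.

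CpG content was high around most of these start sites. The CpG observed/expected ratio within 500 bp of the upstream TSS was above the median of all genes (0.553) for 8 of the 9 genes and 0.549 for Trp53. It was 0.580 for Tert, 0.883 for Bag1 and 0.879 for App, which had a promoter peak. It was 0.704 for Brca1, 0.766 for Plk1, 0.777 for Myc, 0.981 for Cdkn2a and 1.05 for Rb1, which had none. The 2 groups overlapped, and the lowest values were those of Trp53 and Tert, which had a promoter peak. Over all genes the median ratio was 0.730 for the 2512 genes with a promoter peak and 0.50 for the 19847 genes without. A promoter peak was found for 17.7% of the 11261 genes with a ratio at or above the lowest of the 9, against 11.2% of all genes.

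**Figure D4:**
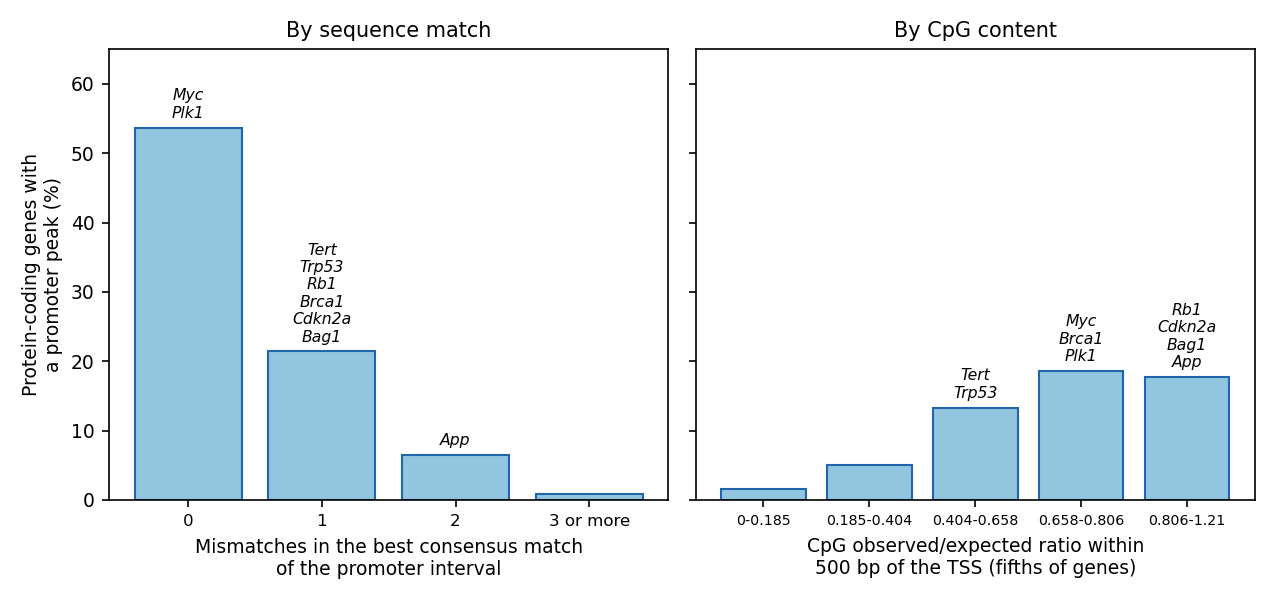
Share of protein-coding genes with a CTCFL peak centered in a promoter interval (y axis, %), on the left by the mismatches in the best consensus match of the promoter interval and on the right by the CpG observed/expected ratio in 5 classes with about the same number of genes. The names above the bars are the members of each class, with Myc and Plk1 in the class at 53.7%, App in the class at 6.50%, and none of the 9 genes in the lower 2 classes of CpG content (1.57 and 4.96%).

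Other genes of the same pathways were counted in 8 lists made by function, with 83 genes in all. A promoter peak was found for 17 of them (20.5%), against 11.2% of all genes, and no test of the lists was made. These genes include Wrap53 and Cdkn2b, whose promoter peaks were already recorded above for Trp53 and Cdkn2a. Of the 83 genes, 75 had a CpG ratio at or above the lowest of the 9 genes. That lowest ratio, 0.549, is just below the median of all genes, 0.553. A promoter peak was found for 16 of these 75 genes (21.3%), against 17.7% of all genes with such a ratio. Whether CpG content bears on the share of the lists was not tested. When peaks narrower than the median were dropped, 14 of the 83 genes still had a promoter peak. With 5 to 16 genes in a list, the counts of genes with a promoter peak that follow are descriptions. In the MYC network, the partners and rivals of MYC at its DNA sites, 5 of 10 genes had one. The peak at Mycl1, a MYC paralog, was 1187 bp wide (rank 40) with its center at +137 bp. That at Mycn, another paralog, was centered at -701 bp (603 bp), and those at the antagonists Mxi1, Mxd3 and Mnt at +6, -726 and -831 bp. Mnt, and Max and Mdm2, were named after their values were seen. Max, the partner that MYC needs to bind DNA, had its nearest peak at 57.1 kb. Both other MYC family genes in the list thus had a peak in the promoter interval, whereas Myc had none within 100 kb.

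In the RB pathway 4 of 16 genes had a promoter peak. They were Rbl1, an Rb1 paralog (+143 bp), and Cdkn2c (-264 bp) and Cdkn2b (+413 bp), both inhibitors of cyclin D kinases. The last was the transcription factor gene E2f2 (+812 bp), with a narrow peak (308 bp, rank 6406). In the p53 pathway it was 2 of 11, the checkpoint kinase gene Chek2 (-20 bp) and the death gene Bbc3, also called Puma (-404 bp), and Mdm2, the main brake on p53, had its nearest peak at 114 kb. Of 12 genes of telomerase and telomere caps 2 had one, Wrap53 (-97 bp) and Terf2ip (+164 bp), which encodes the shelterin subunit RAP1. Of 9 secretase and APP family genes 2 had one, the beta-secretase gene Bace1 (-110 bp) and the App paralog Aplp2 (+697 bp, 738 bp wide). It was 1 of 9 among BRCA1 partners, the ubiquitin reader gene Uimc1 (+91 bp), with a narrow peak (204 bp, rank 7393). Among polo and other mitotic kinases and their regulators it was 1 of 11, the spindle checkpoint kinase gene Ttk (-370 bp). None of the other 5 BAG family genes had a promoter peak, and their nearest peaks were 9.60 to 49.1 kb away.

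**Figure D5:**
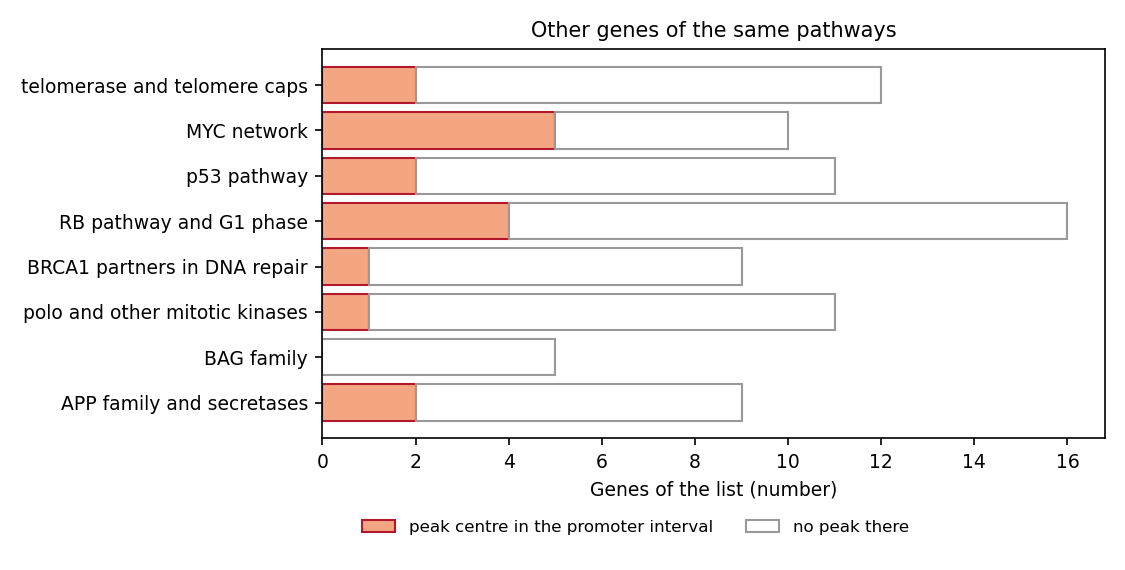
Number of genes (x axis) in each of 8 lists of pathway genes, split into those with a CTCFL peak centered in a promoter interval and those without. The MYC network has 5 of 10 genes in the filled part and the BAG family 0 of 5.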

How the data were processed

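Binding was measured by ChIP-sequencing in the libraries ES_CTCFL_V5_DOX, ES_CTCFL_V5_NODOX and ES_CTCF, 1 each. The authors mapped 36-bp reads with ELAND to the mouse genome, and for their comparative analysis aligned reads with BOWTIE to mm9, retained uniquely placed ones and ran MACS. Which of these steps made the deposited list of the induced cells is not stated. Its track line names a browser export of mm9. It holds starts and ends in bp and no score, so depth is unknown. Starts were raised by 1 to give 1-based positions, so that an export in another convention would shift them by 1 bp. The number of value columns without a sample was 0.

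Peaks were assigned by their midpoint to TSSs and extents of protein-coding transcripts of GENCODE vM1, made on the same build. The 9 genes and the pathway lists were chosen with earlier results of these data known, and all 9 are described. The named genes are these, the nearest protein-coding gene of each of their peaks, and up to 4 genes per list with the smallest distance. Vat1, Chmp5, Ubfd1, Gm15489, Max, Mdm2 and Mnt were named after their values were seen. Terc is not protein-coding and was left out of its list. The consensus was read from the logo of the study. Unique windows were 36-base windows found once on both strands of the genome. Wilson intervals cover counting error only. There was 1 library per condition, so that no test between groups was made. The procedures were tested on simulated data. Python 3.11.15, numpy 2.4.6, pandas 2.3.3, scipy 1.17.1, numba 0.67.0 and matplotlib 3.10.9 were used.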

Additional observations from a re-analysis of the deposited data

How the results depend on the processing

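Of 43 values under other settings 38 were within 1.5 times the value given and 5 were not. The 4 genes with a promoter peak were 4 with all transcripts, merged peaks, peaks with at least 90% unique windows, any overlap, and promoters of 1 or 5 kb to either side. They were 3 when narrower peaks than the median were dropped, Bag1 being lost. The number of all protein-coding genes with a promoter peak, 2512 in the main setting, moved under the same settings. It was 2297 and 3462 with promoters of 1 and 5 kb to either side, and 1680 when the narrow peaks were dropped. Without those narrow peaks the peaks within 100 kb of a TSS of the 9 genes numbered 10 rather than 18, and 0 rather than 2 genes had a peak in the body. Within 50 kb, 10 peaks were left. The peaks with a consensus match numbered 7 at up to 1 mismatch, 1 without mismatch and 16 at up to 2 mismatches. They numbered 8 with positions 1, 2 and 6 also free, chosen after seeing the data, when 33.7% of all peaks had a match. Each of these changes follows from the narrower or wider rule itself. No paired analysis was possible because there was a single library for every condition. For the same reason no replicate could be left out. The list has no score for a stricter threshold, so width was used in its place. A missing peak says that none was listed, not that the site was free of CTCFL.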

Other observations

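Genes in this paragraph were named after their values were seen. The peaks that bound the empty region around Rb1 both lay at promoters of other genes. The upstream one was centered -53 bp from the TSS of Med4, a Mediator subunit gene, and the downstream one (73109090 to 73109705, 616 bp), 616 kb from the Rb1 TSS, was centered -48 bp from the TSS of Fndc3a. Each held a match to the consensus with 1 mismatch. Neither of the peaks that flank Myc held a match at up to 2 mismatches, and both were narrower (271 and 360 bp) than the median peak. The Mycl1 peak, of rank 40 by width, was the widest when the promoter peak nearest to a TSS was taken for each pathway gene. Mxi1 and Chek2 each had a further promoter peak, whose width was not compared.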
